A study of Mus musculus with 6 samples.

Results

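Expression of 10 cytokine and chemokine genes with which epithelial and neighbouring cells signal to immune cells was followed in whole mouse corneas. They were chosen by symbol, as Il1a, Il1b, Il1rn, Il18, Il33, Cxcl1, Cxcl12, Cxcl14, Ccl2 and Ccl7. Each of the 10 had 1 probe set that the array annotation paired with that symbol alone, out of 35557 probe sets in the deposited table, of which 23410 had a gene and were tested. None of the 10 changed past the adjusted threshold. The clearest separation was in Cxcl12, which was lower on all 3 DN-Clim arrays than on all 3 WT arrays, by 0.70 on the log2 scale. Il33 was higher and Cxcl14 lower on all DN-Clim arrays, by smaller amounts, and the groups overlapped for the other 7 genes.

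The DN-Clim corneas came from mice carrying K14-DN-Clim, a transgene in which the keratin 14 promoter drives a CLIM protein that blocks normal CLIM function. CLIM proteins are cofactors that join LIM-domain transcription regulators into complexes. The WT corneas came from littermates without the transgene, and both groups were taken at postnatal day 3, with 3 arrays each. The keratin 14 promoter is active in basal epithelial cells, whereas the RNA was of the whole cornea, with stroma, endothelium, vessels at the edge and resident immune cells. Whether a sample was 1 animal or several is not in the labels. The spread behind the p-values is that between these samples and could be technical in part. The comparison asks which genes of the cornea differ when CLIM function in the epithelium is blocked.

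The IL-1 family members Il1a, Il1b, Il18 and Il33 encode cytokines that act through related receptors and switch on NF-kB, a transcription factor of inflammatory genes. Il1a and Il33 act as alarmins, released when epithelial cells are damaged, while Il1b and Il18 need cleavage by caspase 1 in the inflammasome. Il1rn encodes the antagonist that occupies the IL-1 receptor without signalling. Chemokines are small secreted proteins that direct cell movement. Cxcl1 recruits neutrophils, Ccl2 and Ccl7 recruit monocytes, Cxcl14 is made at high levels by many epithelia, and Cxcl12 attracts cells bearing its receptor Cxcr4.

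Values are log2(intensity + 16) and differences are DN-Clim minus WT on that scale, which understates changes of dim genes. The median log2 value of an array was 7.95 to 8.21 in DN-Clim and 8.11 to 8.17 in WT, with DN-Clim replicate 3 the highest and DN-Clim replicate 2 the lowest. The tissue label was borne out by the keratin Krt12, at 11.16, 11.04 and 11.95 on the DN-Clim arrays and 11.21, 11.55 and 11.47 on the WT arrays, and by the keratocyte proteoglycan Kera, at 11.96 to 12.75 in DN-Clim and 12.56 to 13.09 in WT. The arrays of DN-Clim replicates 1 and 2 stood apart. The summed intensity of 19 lens genes reached 113738 and 109564 there, whereas it was 7581 on DN-Clim replicate 3 and 7274 to 9784 in WT. The results are therefore also given for DN-Clim replicate 3 alone against WT.

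Cxcl12 (probe set 10541075) read 8.15, 8.09 and 8.07 on DN-Clim replicates 1, 2 and 3, against 8.79, 8.82 and 8.79 on WT replicates 1, 2 and 3. The groups were far apart compared with the spread within each. The mean was 8.10 ± 0.04 in DN-Clim and 8.80 ± 0.02 in WT (SD, n = 3 each), a difference of -0.70 (SE 0.166, 95% interval -1.07 to -0.33) or a fold of 0.616. It did not pass (limma adjusted p = 0.612). Limma draws the variance of each probe set towards that of the whole array, whose prior SD was 0.268, so that the narrow spread of Cxcl12 counted only in part. By unadjusted p it ranked 79 among the 23410 probe sets.

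**Figure D1:**
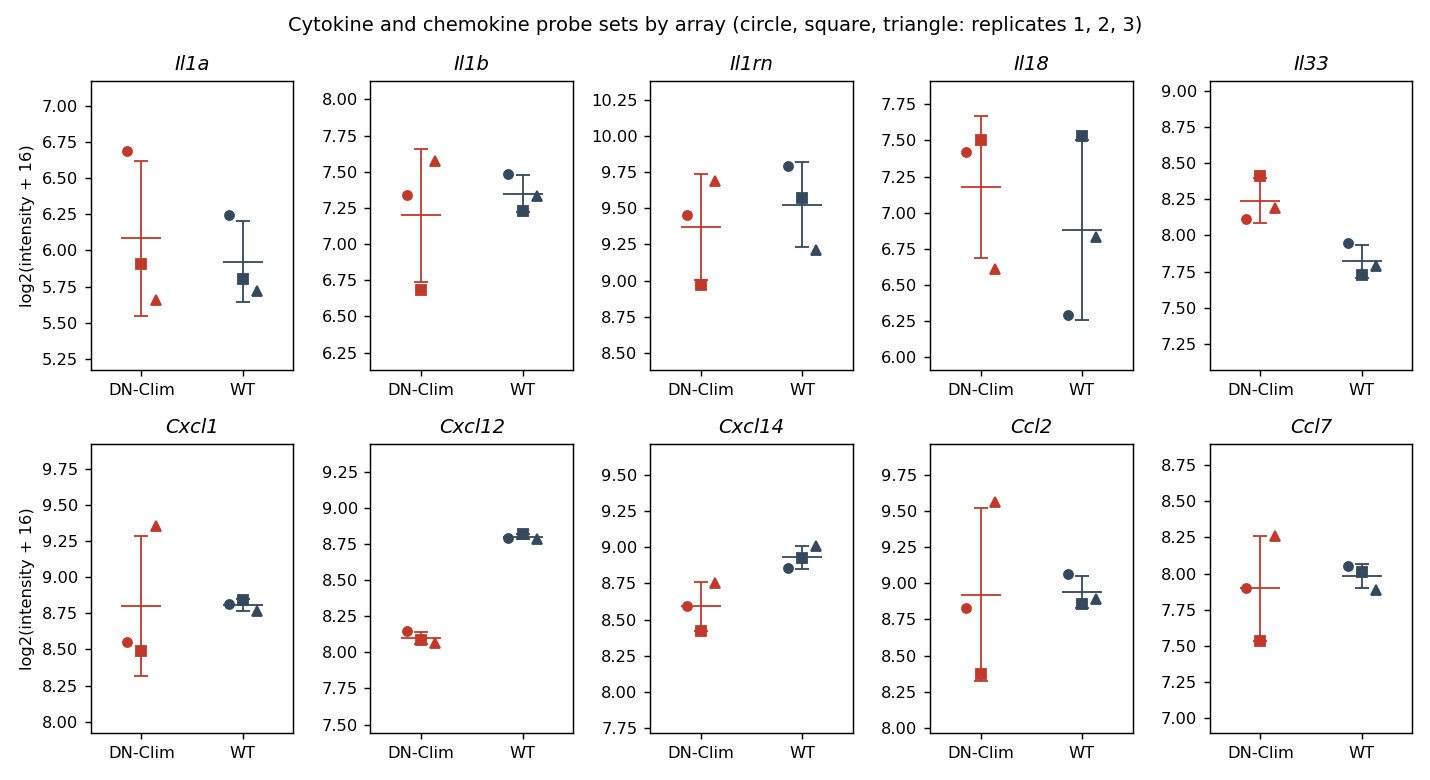
Each panel shows 1 gene, with log2(intensity + 16) on a vertical axis that spans the same range of log2 units in every panel, DN-Clim on the left and WT on the right. Points are arrays, and the bar and whiskers are the mean and SD of 3 arrays. Cxcl12 and Cxcl14 are lower and Il33 is higher on every DN-Clim array, while Il1b, Cxcl1, Ccl2 and Ccl7 are spread wide within DN-Clim.

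Leaving out each array in turn gave a Cxcl12 difference of -0.72 to -0.68, with adjusted p-values of 0.71 without DN-Clim replicate 2 and 0.91 to 1.00 without DN-Clim replicate 1 or any one WT array. DN-Clim replicate 3 alone gave -0.73 (adjusted p = 0.133), in a fit that called 0.337% of probe sets. On that array the lens list stood at -0.04 relative to the WT mean as a median, and a list of 20 stromal genes also at -0.04. The vascular endothelial list stood at -0.22 there and the macrophage list at -0.24. Without DN-Clim replicate 3 the difference was -0.68 (adjusted p = 0.0611), in a fit that called 2.06% of probe sets. With array weights estimated gene by gene, a setting chosen after seeing the data, Cxcl12 passed (adjusted p = 0.00885). In that fit 8.8% of probe sets passed. Its weights on DN-Clim replicates 1, 2 and 3 were 3.06, 0.385 and 0.199, so within DN-Clim it leaned on a replicate with the lens signal.

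In mouse tissues Cxcl12 is made largely by mesenchymal and endothelial cells. Of 18 vascular endothelial markers, 9 were lower without overlap in DN-Clim, where 6.95% of all tested probe sets were. The summed intensity of the 18 was 4331 to 5720 in DN-Clim and 7307 to 7840 in WT. Emcn, an endothelial sialomucin, was the 1 marker that fell (-2.44, adjusted p = 0.0113). The summed stromal intensity was 34666, 26976 and 63140 in DN-Clim replicates 1, 2 and 3, against 61359 to 72359 in WT. None of these markers had a mean intensity under 16, the offset, a low bar that 2.26% to 3.23% of probe sets per array were under. The part of the vascular genes in the Cxcl12 result was not tested. In whole-cornea RNA, fewer cells of a type and less RNA per cell cannot be told apart.

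Cxcl14 (probe set 10409579) read 8.59, 8.42 and 8.75 in DN-Clim, against 8.85, 8.93 and 9.01 in WT. The highest DN-Clim array lay just under the lowest WT array. The mean was 8.59 ± 0.17 in DN-Clim and 8.93 ± 0.08 in WT (SD, n = 3 each), a difference of -0.34 (SE 0.179, 95% interval -0.74 to 0.06, limma adjusted p = 0.916). The corneal epithelial marker list had medians of -0.23, -0.69 and 0.07 on DN-Clim replicates 1, 2 and 3 relative to the WT mean, and Cxcl14 had -0.34, -0.51 and -0.18 on the same arrays. The part of epithelial content in the Cxcl14 values was not tested. DN-Clim replicate 3 alone against WT gave -0.18.

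Il33 (probe set 10462442) read 8.11, 8.41 and 8.19 in DN-Clim, against 7.95, 7.72 and 7.79 in WT. Every DN-Clim array was above every WT array. The mean was 8.24 ± 0.16 in DN-Clim and 7.82 ± 0.12 in WT (SD, n = 3 each), a difference of 0.42 (SE 0.181, 95% interval 0.01 to 0.83, limma adjusted p = 0.836). The 16 alternative fits in which it had a value gave 0.33 to 0.49. Since the groups did not overlap, only quantile normalization (0.47) and median centring (0.49) could have turned its sign. Il33 was the 1 member of the 10 that was higher without overlap. Its interval barely cleared 0 before adjustment. DN-Clim replicate 3 alone against WT gave 0.37.

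Read against the whole array, 3 of 10 members did not overlap between the groups, where 10.1% of all tested probe sets did not. Of the 10, 2 were lower without overlap (background 6.95%) and 1 was higher (background 3.2%). Limma called 0 of 10 at the adjusted threshold of 0.05, where 0.0128% of all probe sets were called, and 2 of 10, Cxcl12 and Il33, had an unadjusted p under 0.05 (background 5.94%). With the replicate number as a block 0 of 10 passed, where 0.0384% of probe sets did. With default array weights, which did not converge, 5 of 10 passed, where 38.5% of probe sets did. The median difference of the 10 was -0.05, against -0.04 over all tested probe sets. A two-sided exact permutation test of 3 arrays against 3 cannot go below p = 0.1, the value reached by Cxcl12, Cxcl14 and Il33.

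**Figure D2:**
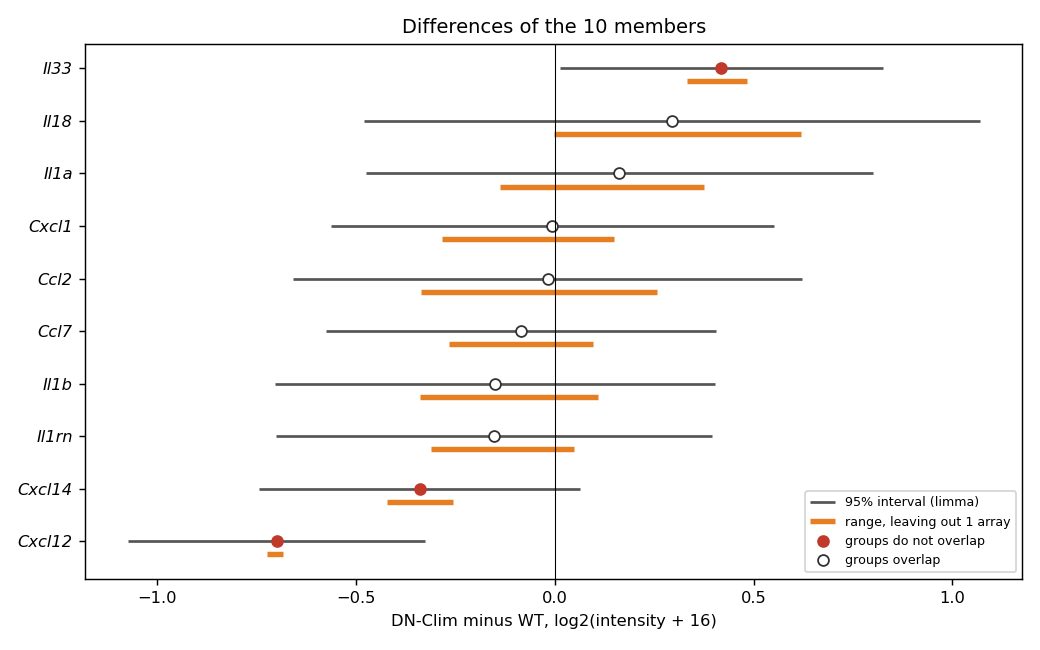
The horizontal axis gives the DN-Clim minus WT difference in log2(intensity + 16) for each gene, with its 95% interval from limma (grey) and the range when 1 array is left out (orange). Filled points are genes whose groups do not overlap. Cxcl12 lies at -0.70 with a leave-out range of -0.72 to -0.68, and the ranges of Il1a, Il1b, Il1rn, Il18, Cxcl1, Ccl2 and Ccl7 reach across 0.

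The sequences before the transcription start are shown for the 3 members whose groups did not overlap, and for Cxcl1 as a contrast. The RefSeq table for GRCm38.p6 matched 8 of the 10 members, and Cxcl1 was the one of these 8 with an NF-kB match. Ccl2 and Ccl7 are named only. Each run is the 250 bases upstream of a start, 5′ to 3′ on the strand of the gene, and Il33 has 2 listed starts that the array does not separate. Capitals mark matches, on either strand, to GGANNTTCC (NF-kB), TGANTCA (AP-1), TTGCNNAA (C/EBP), TAATTA (the core letters read by many LIM homeodomain factors), TATAAA and GGGCGG (GC box).
Cxcl12 (chr6:117168285-117168534, plus strand): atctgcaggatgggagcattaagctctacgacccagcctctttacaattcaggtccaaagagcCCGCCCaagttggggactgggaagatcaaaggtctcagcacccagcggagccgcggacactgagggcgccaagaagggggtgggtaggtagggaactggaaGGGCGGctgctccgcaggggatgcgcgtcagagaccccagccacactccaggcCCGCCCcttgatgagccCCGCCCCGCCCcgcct
Cxcl14 (chr13:56296552-56296801, minus strand): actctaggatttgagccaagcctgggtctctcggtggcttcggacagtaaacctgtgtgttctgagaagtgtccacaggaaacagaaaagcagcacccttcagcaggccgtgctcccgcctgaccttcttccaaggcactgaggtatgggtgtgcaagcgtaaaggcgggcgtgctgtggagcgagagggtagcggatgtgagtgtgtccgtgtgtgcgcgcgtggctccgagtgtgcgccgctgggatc
Il33 (chr19:29924863-29925112, plus strand): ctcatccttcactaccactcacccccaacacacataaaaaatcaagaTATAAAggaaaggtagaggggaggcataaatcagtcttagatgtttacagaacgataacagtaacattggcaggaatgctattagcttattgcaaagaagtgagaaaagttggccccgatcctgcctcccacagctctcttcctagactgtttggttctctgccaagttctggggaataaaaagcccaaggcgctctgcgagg
Il33 (chr19:29945540-29945789, plus strand): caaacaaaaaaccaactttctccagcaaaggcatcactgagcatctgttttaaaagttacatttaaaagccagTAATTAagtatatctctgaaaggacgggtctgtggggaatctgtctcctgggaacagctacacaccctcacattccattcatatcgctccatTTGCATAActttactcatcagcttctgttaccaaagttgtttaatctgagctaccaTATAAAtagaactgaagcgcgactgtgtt
Cxcl1 (chr5:90890995-90891244, plus strand): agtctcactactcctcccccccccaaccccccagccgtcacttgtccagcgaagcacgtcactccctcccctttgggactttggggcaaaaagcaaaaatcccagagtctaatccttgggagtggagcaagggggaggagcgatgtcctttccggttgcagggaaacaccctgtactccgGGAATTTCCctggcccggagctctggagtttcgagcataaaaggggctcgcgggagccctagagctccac
The Cxcl12 window held 5 GC boxes, the last 2 of which share a base, and none of the other letters. GC boxes were found in 32.7% of the 32851 windows in the table. The Cxcl14 window held no match. The first Il33 window held TATAAA alone, far from the start, and the second held TAATTA, TTGCNNAA and TATAAA, which occur in 4.84%, 9.56% and 12.4% of windows. The Cxcl1 window held the NF-kB letters at 1 position, a match present in 3.59% of windows. These matches describe the sequence and do not show binding.

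The receptors of Cxcl12 were picked for that role after their values had been seen. Ackr3, a scavenging receptor that takes up Cxcl12, read 10.66, 10.37 and 10.95 in DN-Clim and 11.28, 10.97 and 11.05 in WT, a difference of -0.44 (95% interval -0.91 to 0.02, limma adjusted p = 0.867). Cxcr4, the signalling receptor, read 11.19, 12.34 and 9.75 in DN-Clim and 9.07, 10.55 and 11.06 in WT. The Cxcr4 groups overlapped over a wide range, with a difference of 0.87 (95% interval -0.60 to 2.34). Its high DN-Clim values lay on the replicates with the lens signal, whose part in the difference was not tested.

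The agonists Il1a and Il1b gave no separation. Il1a (probe set 10487588) read 6.68, 5.91 and 5.66 in DN-Clim, against 6.24, 5.80 and 5.72 in WT. Il1a was dim, with only 2.64% of tested probe sets dimmer, and its one high value was DN-Clim replicate 1. The difference was 0.16 (SE 0.283, 95% interval -0.47 to 0.80). Il1b (probe set 10487597) read 7.34, 6.68 and 7.57 in DN-Clim, against 7.49, 7.23 and 7.33 in WT. DN-Clim thus held both the lowest and the highest Il1b value. The difference was -0.15 (SE 0.246, 95% interval -0.71 to 0.40).

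Il1rn (probe set 10469816), the receptor antagonist, was the member with the brightest probe set. It read 9.45, 8.97 and 9.69 in DN-Clim, against 9.79, 9.57 and 9.21 in WT. The arrays of both groups were interleaved, with a difference of -0.15 (SE 0.243, 95% interval -0.70 to 0.40). Il18 (probe set 10585194), which acts on T and NK cells to induce interferon gamma, read 7.42, 7.50 and 6.61 in DN-Clim, against 6.29, 7.53 and 6.83 in WT. It was the 1 member that varied more within WT, over 1.24, than within DN-Clim, over 0.89. The difference was 0.29 (SE 0.344, 95% interval -0.48 to 1.07). The adjusted p-values of Il1a, Il1b, Il1rn and Il18 were all 0.999, and intervals this wide leave room for changes of either sign.

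The inflammatory chemokines differed more among the DN-Clim arrays than between the groups. Cxcl1 (probe set 10523151) read 8.55, 8.49 and 9.36 in DN-Clim, against 8.82, 8.84 and 8.76 in WT. The difference was -0.01 (SE 0.247, 95% interval -0.56 to 0.55), yet the DN-Clim arrays spanned 0.87 and the WT arrays 0.08. DN-Clim replicates 1 and 2 lay below every WT array and DN-Clim replicate 3 above them all. Ccl2 (probe set 10379511) read 8.83, 8.37 and 9.56 in DN-Clim, against 9.07, 8.86 and 8.89 in WT, a difference of -0.02 (SE 0.284, 95% interval -0.66 to 0.62). Ccl7 (probe set 10379518), the coding gene next to Ccl2 on chromosome 11, read 7.90, 7.53 and 8.26 in DN-Clim, against 8.05, 8.01 and 7.89 in WT, a difference of -0.08 (SE 0.217, 95% interval -0.57 to 0.41). The adjusted p-values of these 3 chemokines were all 0.999.

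Il1b, Cxcl1, Ccl2 and Ccl7 had their highest value on DN-Clim replicate 3 and their lowest on DN-Clim replicate 2. These were 4 of 10 members, against 22.4% of all tested probe sets, so the pattern was common on the arrays. DN-Clim replicate 3 had the highest array median and DN-Clim replicate 2 the lowest. A larger range within DN-Clim than within WT, seen in 9 of 10 members, was likewise found in 81.4% of probe sets. On DN-Clim replicate 3 alone against WT, Cxcl1 stood at 0.55 and Ccl2 at 0.62. The summed intensity of 12 neutrophil and lymphocyte markers was also highest on that array, at 2666, against 1574 and 1735 on the other DN-Clim arrays and 1788 to 1955 in WT. Relative to the WT mean, the median of these markers on that array was 0.39. It was 0.32 for the chemokine receptors, 0.31 for other chemokines and 0.28 for inflammasome genes, so the rise was not confined to them. The lens, stroma, macrophage and vascular medians there were -0.04, -0.04, -0.24 and -0.22. The part of the neutrophil and lymphocyte markers in the chemokine values was not tested.

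**Figure D3:**
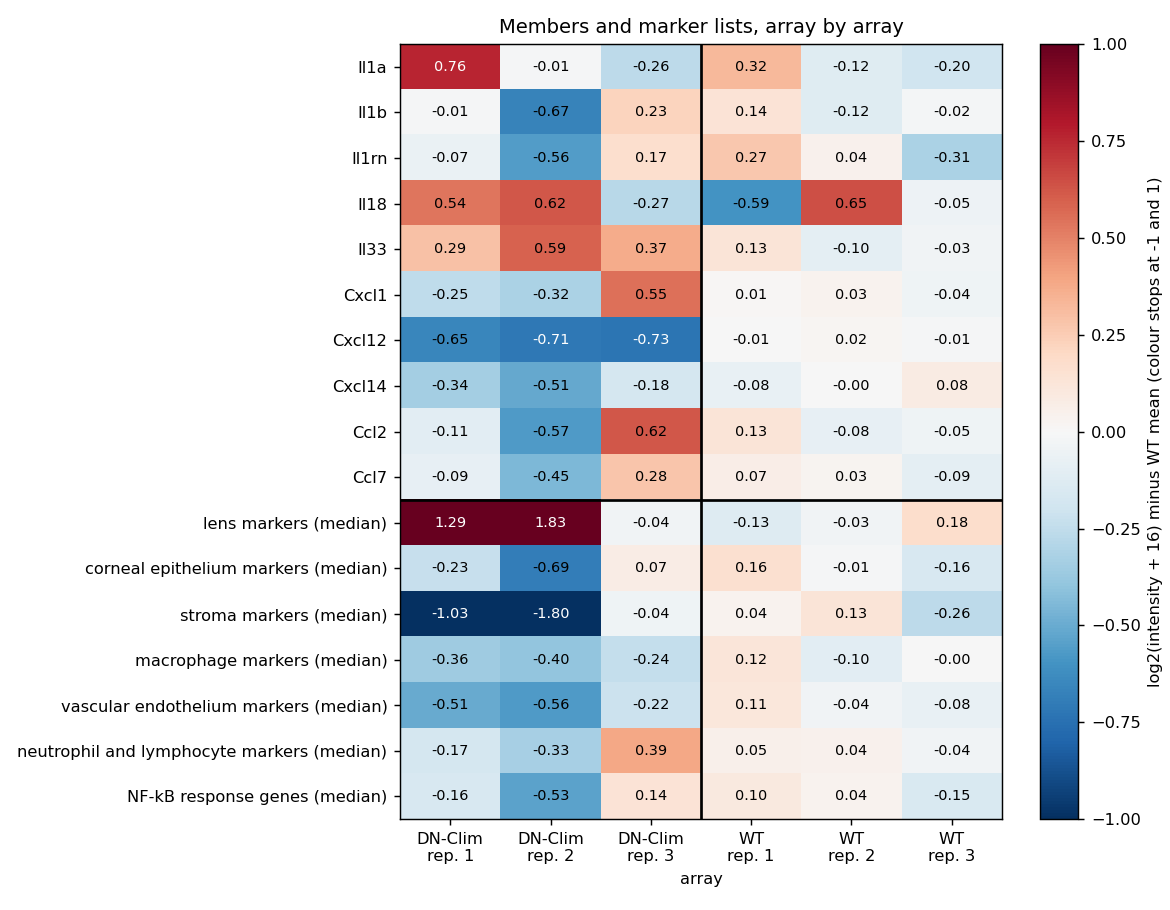
Rows are the 10 members and, under the line, the medians of 7 gene lists, and columns are the arrays, DN-Clim left of WT. Colours and printed numbers give log2(intensity + 16) minus the WT mean. Cxcl12 is at -0.65, -0.71 and -0.73 on DN-Clim replicates 1, 2 and 3, where the lens medians are 1.29, 1.83 and -0.04 and the stroma medians -1.03, -1.80 and -0.04. The vascular endothelium medians on the same arrays are -0.51, -0.56 and -0.22. Cxcl1 and Ccl2 are negative on DN-Clim replicates 1 and 2 and positive on DN-Clim replicate 3.

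Pathway genes around the members were taken from 7 lists with 115 genes, of which 110 had a usable probe set. Limma called 0 of the 110, while 11 were lower and 0 higher with an unadjusted p under 0.05 (background 4.49% lower and 1.45% higher). Lower without overlap were 12 of the 110, above the background of 6.95%, and higher without overlap 2, below the background of 3.2%. Their median difference was -0.08. Relative to the WT mean, the medians of all 7 lists were negative on DN-Clim replicates 1 and 2, the arrays with the lens signal. On DN-Clim replicate 3 they were positive, at 0.08 to 0.32. The largest decrease among the other chemokines was in Pf4, a CXC chemokine of platelets and some macrophages.

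Pf4 read 7.85, 7.34 and 7.20 in DN-Clim, against 9.60, 8.88 and 9.43 in WT. All DN-Clim arrays were lower by more than the spread within either group, with a difference of -1.84 (SE 0.255, 95% interval -2.41 to -1.26, limma adjusted p = 0.172). Ccl12, a mouse monocyte chemokine encoded near Ccl2 and Ccl7, read 7.51, 7.57 and 7.50 in DN-Clim and 8.03, 7.93 and 7.94 in WT. Its arrays did not overlap, with a difference of -0.44 (SE 0.167, adjusted p = 0.791), whereas those of Ccl2 and Ccl7 did. Of the 30 other chemokines, 2 were lower without overlap (background 6.95%) and 1 higher (background 3.2%), in shares close to those of all probe sets. Negative differences were 21 of the 30, for which no share over all probe sets was taken. The median was -0.04, equal to that of the whole array.

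Macrophage markers were counted beside Pf4. Of 20, 0 passed the threshold in limma, 9 were lower without overlap (background 6.95%), and 6 had an unadjusted p under 0.05, all lower (background 4.49%). Their summed intensity was 4212 to 4440 in DN-Clim and 5414 to 6601 in WT. None had a mean intensity under 16, the offset, which few probe sets of the array were under. Mrc1, a mannose receptor of tissue macrophages, differed by -1.46 (adjusted p = 0.341). The part of these markers in the chemokine values was not tested.

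Among 13 measured IL-1 receptors and signalling genes, Il1r2 had the smallest p. It encodes a decoy receptor that binds IL-1 without signalling. Il1r2 read 6.09, 5.41 and 6.73 in DN-Clim, against 7.53, 7.32 and 7.17 in WT, a difference of -1.27 (SE 0.307, 95% interval -1.96 to -0.57, limma adjusted p = 0.612). All DN-Clim arrays were below all WT arrays, at a dim level that 8.6% of probe sets were under. Il1rl2, the receptor of the IL-36 cytokines, differed by -1.10 (SE 0.483, adjusted p = 0.836) with overlap. Of the 13, 2 were lower without overlap (background 6.95%) and 1 was higher (background 3.2%). The list median was -0.05.

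The 5 other IL-1 family genes, the IL-36 cytokines with their antagonist and Il1f10, overlapped between the groups. Il36rn, the antagonist, differed by -0.27 and Il36g by -0.26, both with an adjusted p of 0.999. Of 12 inflammasome and processing genes, 1 was lower without overlap (background 6.95%) and 0 higher (background 3.2%). The lower gene was Pycard, the adaptor that joins sensors to caspase 1. Pycard read 8.95, 9.03 and 9.18 in DN-Clim, against 10.10, 9.75 and 9.50 in WT, a difference of -0.73 (SE 0.206, limma adjusted p = 0.626). Gsdmd, whose cleaved form opens the pores through which mature IL-1 beta leaves the cell, differed by -0.47 (adjusted p = 0.944).

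Of 20 NF-kB response genes, 3 were lower without overlap (background 6.95%). Their median was -0.14, against -0.04 over all tested probe sets. Relative to the WT mean it was -0.16, -0.53 and 0.14 on DN-Clim replicates 1, 2 and 3, so replicate 3 went the other way. Negative differences were 15 of the 20, a count for which no share over all probe sets was taken. Ptgs2, the inducible cyclooxygenase, read 8.77, 7.76 and 10.38 in DN-Clim and 10.46, 10.74 and 10.37 in WT. Its difference of -1.55 (SE 0.533, limma adjusted p = 0.752) rested on the DN-Clim replicates with the lens signal, since DN-Clim replicate 3 lay among the WT arrays. Birc3, an inhibitor of apoptosis, differed by -0.83 (adjusted p = 0.819). Of 8 genes in a list of epithelial alarmins and other epithelial factors, 3 were lower without overlap, against the same background of 6.95%. They were Tslp, Ereg and Defb1. Ereg, an EGF receptor ligand, differed by -0.79 (adjusted p = 0.767), and Tslp, an epithelial cytokine acting on dendritic cells, by -0.48 (adjusted p = 0.836). Among 22 chemokine receptors, Cxcr2, the receptor of Cxcl1, differed by -0.74 (adjusted p = 0.898), and its DN-Clim arrays overlapped those of WT. Cxcr2 was dim, with 1.63% of tested probe sets dimmer, and DN-Clim replicate 3, at 6.40, lay above every WT array.

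**Figure D4:**
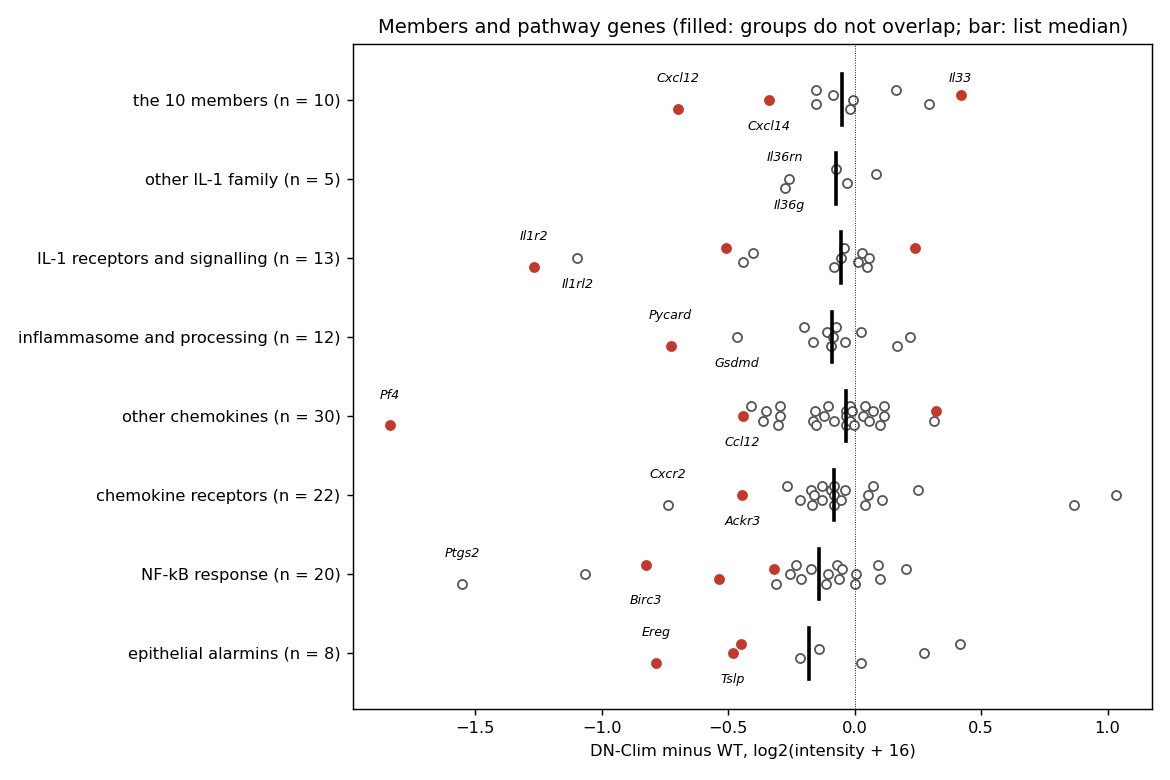
Each point is a gene, placed by its DN-Clim minus WT difference in log2(intensity + 16), in the row of the 10 members or of one of 7 pathway lists. Filled points are genes whose groups do not overlap and bars are list medians, which lie between -0.18 and -0.04. Pf4 at -1.84, Ptgs2 at -1.55 and Il1r2 at -1.27 lie farthest to the left.

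Genes with the most similar pattern over the 6 arrays were sought among 9772 genes at or above the median brightness. For Cxcl12 they were Sbsn, a secreted protein of stratified epithelia (Pearson r = 0.994), Psca, a surface protein of epithelia (r = 0.993), and Pls3, an actin-bundling protein (r = 0.993). Psca fell by 1.87 (limma adjusted p = 0.023). Sbsn differed by -0.54 and Pls3 by -0.91, and neither passed. Since Cxcl12 varied little within the groups (SD 0.04 in DN-Clim and 0.02 in WT), these correlations mostly restate the split between DN-Clim and WT. For Il1rn, whose pattern followed no group, they were Copg1 (r = 0.991), Itgb4, a hemidesmosome integrin (r = 0.990), and Slc6a20a (r = 0.986). Over so few arrays such correlations are easily reached, and 24 genes exceeded an r of 0.95 with Cxcl12 and 84 with Il1rn.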

How the data were processed

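Whole-cornea RNA of 3 DN-Clim and 3 WT samples was measured on Affymetrix Mouse Gene 1.0 ST arrays after NuGEN amplification, per the labels' protocols. The deposited values are linear probe set intensities that the authors made with Affymetrix Expression Console 1.1 and PLIER, per the submitters' processing notes. For background correction and normalization no method is given in the sources used here. From these, log2(intensity + 16) was computed. Array medians differed by at most 0.267, under the limit of 0.5 set for centring. The 23410 probe sets with a gene (21789 with exactly 1 symbol) went into limma (version 3.58.1, run in R 4.3.3; lmFit and eBayes), with Benjamini-Hochberg adjustment over all of them and a threshold of 0.05. The fit was tested on simulated data. Apart from leaving out the 12147 probe sets with no gene, no values were filtered, and the number of arrays limits the precision. Symbols were matched through the array annotation or RefSeq synonyms. All 10 members were named, with up to 4 passing genes of each pathway list, or the 2 with the smallest p. For the member with the smallest p and the one with the brightest probe set, the 3 most correlated genes were named. Members and lists were chosen with earlier results of these data known. Alternatives were other offsets, scalings, filters and priors, array weights, a replicate block and left-out arrays. Deviations of same-numbered arrays from their group means had correlations of 0.02, -0.21 and -0.44, and those of unlike-numbered arrays -0.28 to 0.45. With so few arrays this cannot decide whether the numbers pair the samples, and the labels do not say.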

Additional observations from a re-analysis of the deposited data

How the results depend on the processing

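Under 16 other settings and 1 more chosen after seeing the data, Cxcl12, Cxcl14 and Il33 kept their direction wherever they were tested. Their groups also did not overlap with quantile normalization or median centring. Among the settings, these alone could have changed the direction or the separation. The ranges were -0.73 to -0.62 for Cxcl12, -0.42 to -0.18 for Cxcl14 and 0.33 to 0.49 for Il33. The count of 3 probe sets over the array became 1 with quantile normalization, 0 with all probe sets of the table, 5 with a trended robust prior, 9 with the replicate block, 79 with DN-Clim replicate 3 alone (assumed to vary like WT), and 0 to 483 when single arrays were left out. Only the fit without DN-Clim replicate 3 gave 483, and the other 5 gave 0. Default array weights did not converge, put a weight of 34.9 on DN-Clim replicate 1, and called 9004 probe sets and 5 members. Gene-by-gene weights called 2059 and 1 member, Cxcl12. No member was called with the replicate block. The filter on dim probe sets left 5 members. Of 165 comparisons of single members, 135 were the same in direction and side of the threshold, 6 passed (all with array weights) and 24 turned direction, none past the threshold. With quantile normalization Cxcl1 turned to 0.0725, Ccl2 to 0.0733 and Ccl7 to 0.00493. With median centring Cxcl1 turned to 0.0639 and Ccl2 to 0.0524, and with default weights Il1b to 0.0286. With DN-Clim replicate 3 alone Il1a turned to -0.26, Il1b to 0.23, Il1rn to 0.17, Il18 to -0.27, Cxcl1 to 0.55, Ccl2 to 0.62 and Ccl7 to 0.28. Leaving out single arrays gave -0.14 to 0.37 for Il1a, -0.34 to 0.11 for Il1b, -0.31 to 0.048 for Il1rn, -0.00275 to 0.62 for Il18, -0.29 to 0.15 for Cxcl1, -0.34 to 0.26 for Ccl2 and -0.27 to 0.10 for Ccl7. The cause of these turns was not tested. Dim probe sets, Il1a above all, limit what can be seen.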
